A study of Homo sapiens with 4 samples.

Results

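The 1991 regions described here are wide H3K14ac regions called in control cells only, outside the largest block without genes on each chromosome. They were chosen by 3 conditions on the peak list of the shNT library, 2 of which are measured values: a width of 500 bp or more, no shared base with any region of the shNIT2 list, and a position outside the longest stretch of the chromosome that holds no RefSeq gene. They are 4.99% of the 39876 regions of the shNT list and cover 1.39 Mb, 7.10% of its length. Of the 2860 shNT regions that met the width and position conditions, 69.6% met the condition on overlap, which chose the members, against 83.3% of shNT regions of any width outside the longest stretches and 90.9% of all shNT regions. The remaining 869 of the 2860 shared bases with the shNIT2 list. A region near the width limit differed little from those just under it, since the 106 members less than 10 bp above the limit had a median fold enrichment (fragments at the summit plus 1, over background fragments plus 1) of 4.69 and the 134 unshared regions up to 10 bp below it had 4.50, both with a median of 5 fragments at the summit.

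The study profiled acetylation of histone H3 at lysine 14 (H3K14ac) by chromatin immunoprecipitation and sequencing in MKN45, an established human gastric cancer cell line. The cells carried either a hairpin labelled shNIT2, against NIT2, or a hairpin labelled shNT, the reference. NIT2 is an omega-amidase, an enzyme that hydrolyses the amides formed when glutamine and asparagine are transaminated. Each condition had 1 H3K14ac library and 1 input library, and the peak lists of the 2 H3K14ac libraries were analysed here. All 4 libraries came from this 1 line, the labels used here give neither the hairpin sequence nor whether the cells were a clone or a pool, and the level of NIT2 was not measured in these lists. With 1 library per condition there is no replicate check, no test of a difference between conditions was possible, and the intervals given after shares are exact Clopper-Pearson 95% intervals that cover counting error only.

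H3K14ac is a mark of open chromatin that acetyltransferases such as GCN5 and KAT7 place on the H3 tail and histone deacetylases remove. It is best known at promoters and enhancers of active genes, whereas the satellite repeats around centromeres usually carry little acetylation. The short arms of the acrocentric chromosomes hold arrays of 45S ribosomal RNA genes and long blocks of repeats, and reads from such copies can often be placed at more than one address.

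No member overlapped any of 35116 RefSeq promoter windows, each running from 250 bases before to 50 bases after a gene start. Of these windows, 32 lay within 1 kb of a member. The 4 windows below were picked, after the values were seen, to show the promoters that members came close to: the 3 nearest, and that of ATP5MJ, a small ATP synthase subunit from the respiratory chain list. They are printed 5′ to 3′ from RefSeq (GRCh38.p14), with each CG dinucleotide in capitals.
GPATCH4 (chr1:156601430-156601729, minus strand): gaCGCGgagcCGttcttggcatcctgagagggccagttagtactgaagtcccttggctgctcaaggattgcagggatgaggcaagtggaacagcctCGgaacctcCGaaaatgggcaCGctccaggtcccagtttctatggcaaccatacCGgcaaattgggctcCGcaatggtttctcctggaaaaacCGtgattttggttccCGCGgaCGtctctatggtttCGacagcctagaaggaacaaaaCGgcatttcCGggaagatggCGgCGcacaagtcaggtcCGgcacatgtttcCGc
ZNF510 (chr9:96778038-96778337, minus strand): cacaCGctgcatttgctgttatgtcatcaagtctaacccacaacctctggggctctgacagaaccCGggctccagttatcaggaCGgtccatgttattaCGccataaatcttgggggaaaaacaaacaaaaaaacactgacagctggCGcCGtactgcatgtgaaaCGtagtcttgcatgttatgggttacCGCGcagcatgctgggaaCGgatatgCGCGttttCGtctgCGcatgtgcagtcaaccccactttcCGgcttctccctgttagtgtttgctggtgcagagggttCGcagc
ABRAXAS2 (chr10:124801569-124801868, plus strand): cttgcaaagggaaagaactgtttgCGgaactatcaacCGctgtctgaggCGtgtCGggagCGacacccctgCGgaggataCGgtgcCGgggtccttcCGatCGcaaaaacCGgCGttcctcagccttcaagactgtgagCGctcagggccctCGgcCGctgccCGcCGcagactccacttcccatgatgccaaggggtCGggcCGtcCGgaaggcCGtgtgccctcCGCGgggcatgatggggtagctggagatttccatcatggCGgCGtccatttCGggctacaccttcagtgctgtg
ATP5MJ (chr14:103921480-103921779, minus strand): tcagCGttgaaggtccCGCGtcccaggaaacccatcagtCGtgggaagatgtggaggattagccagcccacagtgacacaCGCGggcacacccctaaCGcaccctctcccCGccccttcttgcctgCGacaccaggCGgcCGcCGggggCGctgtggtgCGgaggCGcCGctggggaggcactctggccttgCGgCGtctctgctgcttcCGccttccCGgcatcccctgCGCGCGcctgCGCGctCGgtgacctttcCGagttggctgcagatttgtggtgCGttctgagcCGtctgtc
The window of GPATCH4, a G-patch protein, held 19 CG, a number reached by 42.9% of all windows, and a member of 3.02-fold enrichment and 3 fragments lay 24 bp away. ZNF510, a zinc finger gene, had 16 CG (reached by 47.5% of windows), and its member of 5.48-fold lay 58 bp away. ABRAXAS2, a scaffold of a deubiquitinase complex, had 26 CG (reached by 30.1% of windows), and its member of 4.51-fold lay 118 bp away. The ATP5MJ window had 29 CG (reached by 24.2% of windows), and its member of 5.05-fold lay 622 bp away. All 4 windows exceeded the median of 14 CG per window, and 96.0% of windows held at least a single CG.

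At 3 of these 4 promoters a region of the shNIT2 list lay nearby. An shNIT2 region of 3.87-fold and 18 fragments lay 82 bp from the GPATCH4 window, on its other side from the member. An shNIT2 region of 3.54-fold and 23 fragments lay 13 bp from the ABRAXAS2 window, again on the other side from the member. An shNIT2 region of 4.06-fold and 16 fragments lay 90 bp from the ATP5MJ window, between the window and the member. The nearest shNIT2 region to ZNF510 was 158571 bp away. Except at ZNF510, both lists thus had a region beside the promoter window, at different places. Over all 35116 windows, 6321 lay within 1 kb of a wide region found only in the shNIT2 list, with its narrower and shared regions not counted. The 4 windows were picked, so they do not describe the members as a whole.

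The 45S ribosomal block on chromosome 21 is shown for its copies, in which members lay at or beside microRNA genes. MIR6724-1 and MIR6724-3 lay inside members, and MIR6724-2 ended 306 bp before another. The mature product of MIR6724-2 (chr21:8249515-8249537, plus strand) is shown from RefSeq (GRCh38.p14) with its seed, bases 2 to 8, in capitals. The copy in MIR6724-4 (chr21:8432540-8432562, plus strand) has the same letters.
hsa-miR-6724-5p: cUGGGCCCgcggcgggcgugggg

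Most members were on chromosome arms, but 384 (19.3%, 17.6 to 21.1) were in other gene-free stretches of 1 Mb or more, so the name "arms" holds for 80.7% of them at most. There were 8 such stretches outside the longest ones; 5 held members and none of the 8 held a region of the shNIT2 list. Those on chromosomes 14, 21 and 22 held 373 members, 18.7% of all. The stretch chr22:12815794-15264488 held 130 members among 484 shNT regions, chr21:10649836-13038165 held 125 among 512, and chr14:16057623-18343037 held 118 among 477. Their members numbered 52.4 per Mb, against 0.558 per Mb over the 2877.87 Mb outside all gene-free stretches of 1 Mb or more. On these acrocentric chromosomes the longest gene-free stretch, which the rule left out, ran at lower coordinates than the one that kept the members. No centromere positions were at hand, so how much of the kept stretches is centromeric was not checked. A stretch on chromosome 7, chr7:60993221-63011462, adjoined the longest stretch and held 10 members among 51 shNT regions, and chr2:90361127-91442055 held 1 among 2.

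**Figure D1:**
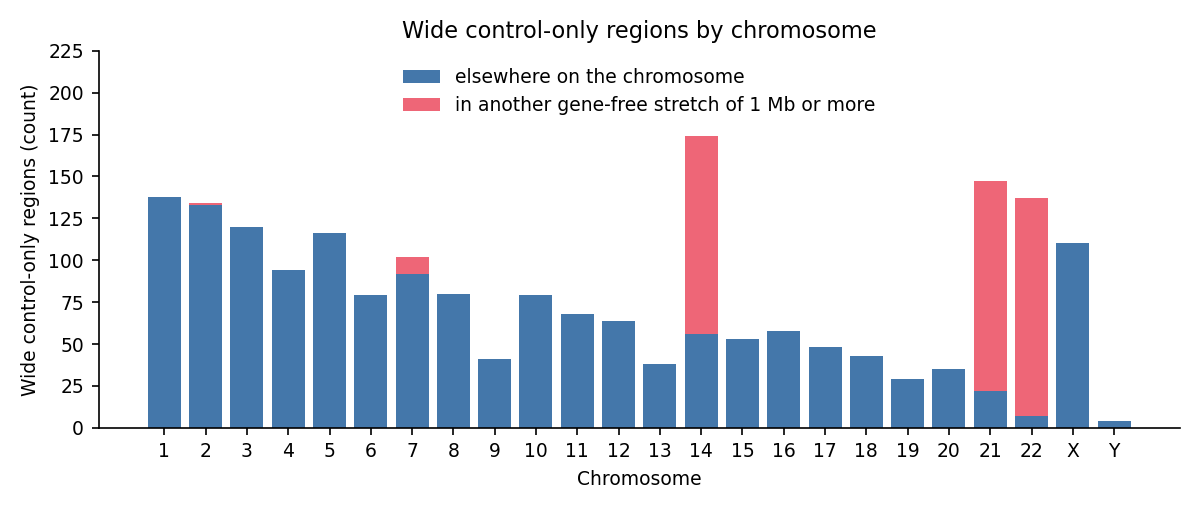
Number of members on each chromosome, with members in other gene-free stretches of 1 Mb or more set apart from the rest. Chromosome 14 had 174, 21 had 147 and 22 had 137, and most of those were in the gene-free stretches.

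Chromosome counts reflected these stretches, as the plot of members by chromosome shows. Chromosome 14 had 174 members, chromosome 21 had 147, chromosome 1 had 138, chromosome 22 had 137 and chromosome 2 had 134. Outside the gene-free stretches of 1 Mb or more, chromosome 22 kept 7 members and its density was 0.184 per Mb, below that of every other chromosome but Y, at 0.161 per Mb. The X chromosome (110 members, 0.727 per Mb) and chromosome 16 (58 members, 0.726 per Mb) had the highest densities on that count.

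Members in the other gene-free stretches were wider and taller than those elsewhere. The 384 had a median width of 669 bp, a median enrichment of 5.77-fold and a median of 9 fragments over a background of 0.606, against 619 bp, 4.70-fold and 6 fragments over 0.325 for the 1607 members outside them. Of the 384, 380 had another member within 100 kb, against 361 of the 1607 (22.5%). The strongest were chr14:17305643-17306327, at 13.5-fold with 23 fragments, and chr21:11522492-11523142, at 13.2-fold with 39 fragments. The widest of all members, chr14:17523622-17526498, was 2877 bp long with 20 fragments and 8.26-fold enrichment. Its nearest protein-coding gene, the olfactory receptor gene OR11H12, was 1074618 bp away.

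Most members were called on few fragments. The authors' fold enrichment, used here within the list only, ranged from 2.06 to 38.9 with a median of 5.05 (quartiles 4.16 and 6.25). The number of fragments at the summit and the local background were recovered from each member's fold and p-value, with 1 added to both in the fold, and could be solved for all 1991. Summits held 3 to 237 fragments, with a median of 6 and quartiles of 5 and 8. There were 808 members (40.6%) with 3 to 5 fragments, 878 with 6 to 9 and 305 (15.3%) with 10 or more. Members were few at the high end, with 52 at 10-fold or more and 5 at 15-fold or more.

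For 623 members (31.3%, 29.3 to 33.4) the background was the lowest value in the list, 0.278 fragments, so their fold enrichment took steps set by whole fragments. At this floor, 3 fragments gave 3.13-fold in 43 members, 4 gave 3.91-fold in 148, 5 gave 4.70-fold in 166, 6 gave 5.48-fold in 108 and 7 gave 6.26-fold in 72. The shNIT2 list had a floor of 2.48 fragments, 8.93 times that of the shNT list. The lowest pileup called at the floor was 9 fragments in the shNIT2 list and 3 in the shNT list, and the median pileup over all regions was 22 in the shNIT2 list and 6 in the shNT list. Of the members, 1568 (78.8%) had fewer than 9 fragments at the summit, not scaled for depth. Total read numbers are not in the lists, and the part of this difference in which regions the shNIT2 list lacks was not tested.

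**Figure D2:**
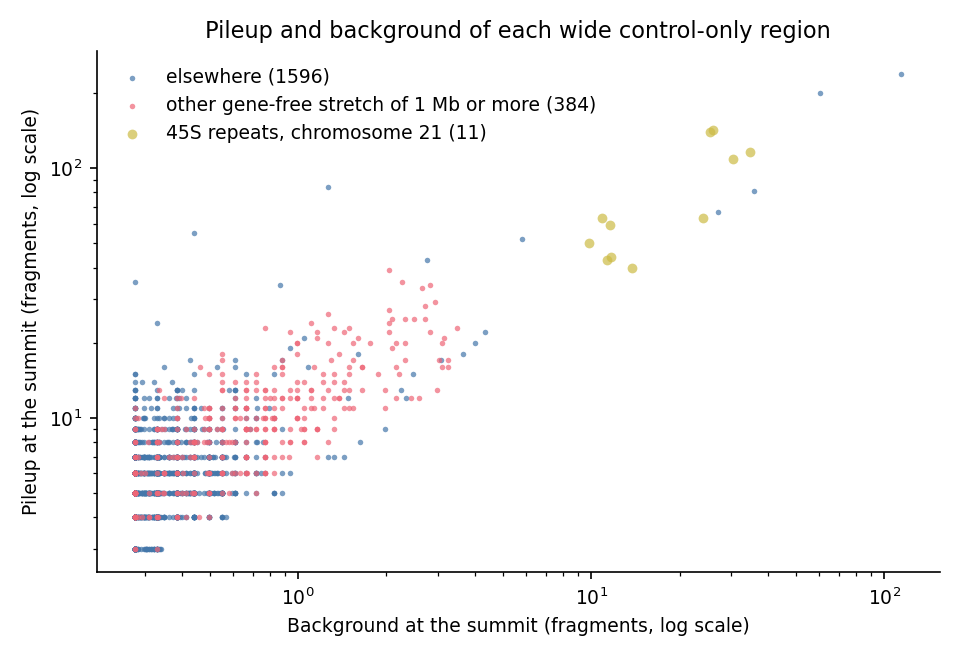
Fragments at the summit (vertical axis, log scale) against the local background in fragments (horizontal axis, log scale) for the 1991 members, 1 point each, with the 384 in other gene-free stretches of 1 Mb or more and the 11 in the 45S block in colours of their own. Most points lie in horizontal lines of whole fragments at the lower left, and the 45S members lie at 40 to 142 fragments over backgrounds of 9.81 to 34.7.

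The plot of pileup against background shows the members alone; beside other kinds of region they were of middling height. Members had a median of 6 fragments and a median width of 628 bp. The 869 wide shNT regions shared with the shNIT2 list had a median of 9 fragments, a width of 646 bp and 6.61-fold enrichment. The 16061 narrower shNT regions outside the longest stretches and not overlapped had 4 fragments, 296 bp and 3.91-fold. The 8824 wide shNT-only regions inside the longest stretches had 11 fragments, 784 bp and 6.94-fold. Members thus lay between the narrow regions and the shared ones in height. Since shared and unshared regions were told apart by the rule, these values describe the kinds and support no statement on the overlap itself.

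Width and height went together among members. Under 600 bp (822 members) the median was 5 fragments and 4.70-fold, from 1000 bp to under 1500 bp (168 members) it was 7 fragments and 5.62-fold, and at 1500 bp or more (13 members) it was 9 fragments and 6.25-fold. Widths ran from 500 to 2877 bp with quartiles of 553 and 763.5 bp, and 1300 members (65.3%) were under 700 bp. Outside the longest stretches, the unshared share was 88.4% of shNT regions under 300 bp, 70.5% from 500 bp to under 600 bp and 68.8% at 1000 bp or more.

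The strongest members were at a few addresses, several of them within 2 Mb of the longest gene-free stretch. The region chr16:34622525-34623538 had 38.9-fold enrichment with 55 fragments over 0.441, and its nearest protein-coding gene, LOC124903767, was 232703 bp away. The region chr2:94501852-94502626 had 37.5-fold with 84 fragments, and a second member of that group, chr2:94505295-94505971, had 18.8-fold with 34. The nearest protein-coding gene to this pair was AQP7B, of the aquaporin family, 81339 bp from the closer member. The region chr9:40559954-40560810 had 18.8-fold with 24 fragments and lay in the pseudogene LOC102724580.

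APC held the strongest member inside a protein-coding gene. APC is a tumour suppressor that works in the complex that degrades beta-catenin. The region chr5:112839264-112840366 was 1103 bp wide and had 35 fragments over the floor background, 28.2-fold. A narrower shNT region in the same gene, chr5:112837976-112838267, had 14 fragments and 11.7-fold, and a further one had 4 fragments and 3.76-fold. The shNIT2 list had 2 regions in this gene, at chr5:112708156-112708425 (13 fragments, 3.06-fold) and chr5:112748639-112748919 (12 fragments, 2.84-fold). By the rule no shNIT2 region could touch the wide member, which was the tallest of the 3 shNT regions counted there.

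Strong members were found both inside protein-coding genes and far from them. SHOX2, a homeobox transcription factor, had a 12.6-fold member with 16 fragments 193772 bp away. ISL1, a LIM-homeodomain transcription factor, had a 12.5-fold member with 15 fragments at the floor background 624256 bp away, in the long noncoding RNA gene LINC02118. After APC, the strongest inside genes were in SRGAP2C, a human-specific partial copy of SRGAP2, and in KIF13B, a kinesin motor, both with 13 fragments and 11.0-fold. PPP2R2B, a regulatory subunit of protein phosphatase 2A, and LAMA2, a laminin chain of basement membranes, both held members of 12 fragments and 10.2-fold. The membrane-type metalloproteinase MMP16 had 13 fragments and 10.1-fold. CDKAL1 (9.55-fold), DEUP1 (9.40-fold), PHLPP1 (9.38-fold) and EYS (9.25-fold) completed the 10. These 9 after APC were close in height, with 11 to 13 fragments.

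On chromosome 16, the window chr16:34572641-34732231 held 11 members with 12 narrower shNT regions, and the shNIT2 list had none there. The 11 are called the chromosome 16 group here. Only 10 of them, at chr16:34572641-34624686, form a group by the limit of 100 kb used further below, since the last lay 106114 bp from the next. The enrichment of the 11 ran from 2.06-fold to 38.9-fold and their background from 0.356 to 114 fragments. The tallest summit of any member, 237 fragments, was in this group over a background of 114, and gave 2.06-fold, the smallest enrichment of all members. On chromosome 2, chr2:94499289-94557057 held 3 members and 7 narrower shNT regions, again with none in the shNIT2 list. Both windows were set after their values were seen, and members were chosen for having no overlap with the shNIT2 list. The windows were 159.6 kb and 57.8 kb long. Wide regions found only in the shNIT2 list numbered 0.707 per Mb within 0.5 Mb of the longest stretch and 3.50 from 1 to 2 Mb. At such densities a window of this length can hold none, so the absence is not a result about these members. Over all 1991 members, background was 1 fragment or more at 124 (6.23%) and 5 or more at 16, of which 11 were in the 45S block, 4 in this chromosome 16 group and 1 on chromosome 20.

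The 45S ribosomal block on the short arm of chromosome 21 (chr21:8202629-8472172) held 40 shNT regions, of which 11 were members, 28 were narrower and unshared and 1 was shared. The shNIT2 list had 1 region there, with 326 fragments and 2.13-fold enrichment. The 11 members had 40 to 142 fragments, backgrounds of 9.81 to 34.7 and enrichments of 2.55-fold to 5.40-fold. They were taller than most members, while their enrichment stayed near or below the median of all members.

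Several 45S members came as pairs at the same place in separate copies. A member reached from position -951 to 806 relative to the low-coordinate end of RNA45SN2, and another from -961 to 804 relative to that of RNA45SN3. They had 44 and 43 fragments and 3.55-fold and 3.56-fold enrichment. A second pair lay 9310 to 9831 bp into RNA45SN2, with 59 fragments and 4.79-fold, and 9296 to 9821 bp into RNA45SN3, with 50 fragments and 4.72-fold. Members 870 bp from CDC27P9 and 911 bp from CDC27P10 had 142 and 140 fragments, and members 2683 bp from each had 109 and 116. A further member 863 bp from CDC27P11 was lower, with 63 fragments and 2.55-fold, against 5.30-fold and 5.34-fold for those at CDC27P9 and CDC27P10. Copies of a sequence can share reads, so the members of a pair are not independent observations.

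**Figure D3:**
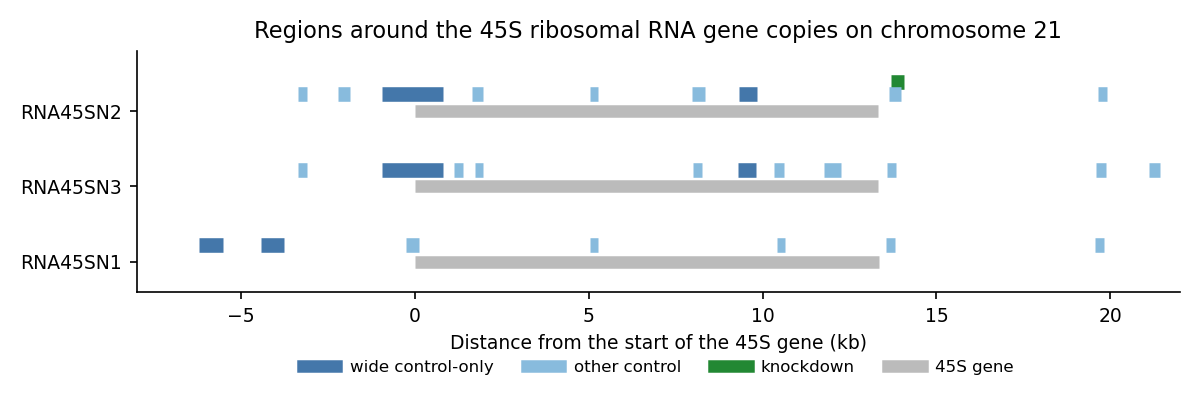
Regions around 3 copies of the 45S gene on chromosome 21, by distance in kb from the low-coordinate end of each copy (grey bar), with members in dark blue, other shNT regions in light blue and the shNIT2 region in green. Members lie at the same places in RNA45SN2 and RNA45SN3, and RNA45SN1 has 2 members before its start.

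Some members by other copied genes had a like spacing, in pairs chosen after their values were seen. On chromosome 7, members of 10.3-fold and 9.57-fold lay 1819 bp from SNORA15B-2 and 1826 bp from SNORA15B-1, small nucleolar RNA genes. Members of 11.1-fold and 8.16-fold lay 606 bp from PMS2P5 and 603 bp from PMS2P7, pseudogenes of the mismatch repair gene PMS2. Other members by PMS2 pseudogenes did not share this spacing, since they lay inside PMS2P7, PMS2P11 and PMS2P14 and 4544 bp from PMS2P13. In the 5S ribosomal array of chromosome 1 (chr1:228609201-228640814), 9 shNT regions included 1 member, with 8 fragments and 3.43-fold, which held RNA5S1. The nearest shNIT2 region, chr1:228647047-228647381, lay beyond the last of them, with 11 fragments and 3.45-fold.

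Whether repeated gene families were near members more often than their share of the genome depended on the other gene-free stretches. Of the members, 117 (5.88%, 4.88 to 7.001) lay in or within 10 kb of a listed family, and such ground makes up 5.54% of the span outside the longest stretches. Without the 384 members in other gene-free stretches, the share of members was 7.28% (6.06 to 8.66) of the 1607. Over all regions of each other kind, the share was 6.49% of narrower unshared, 8.75% of wide shared and 6.89% of wide shNIT2-only regions. The other gene-free stretches held 7.17% of the narrower unshared regions and none of the wide shared or shNIT2-only ones. The 6.49% is therefore not on the same footing as the 7.28%. Small RNA and ribosomal RNA genes were near 60 members (3.01%, with 2.53% of the span), multicopy protein families near 22 (1.10%, with 0.755%) and zinc finger genes near 20 (1.005%, with 1.12%). Olfactory receptors were near 9 (0.452%, with 0.524%), the group of HLA, MUC, PCDH, UGT, CYP and KRTAP genes near 6 (0.301%, with 0.505%), and histone and tRNA genes near 2 each (with 0.0958% and 0.169% of the span). Over all members, the counting interval of each family's share included the share of the span that it takes up.

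Members lay mostly between protein-coding genes. By the midpoint, 1344 (67.5%, 65.4 to 69.6) were between genes, 627 (31.5%, 29.5 to 33.6) inside a gene and 20 (1.00%, 0.615 to 1.55) within 1 kb of a gene's end. Over the span outside the longest stretches, 55.3% of bases are between genes, 42.2% inside and 2.52% at gene ends. Leaving out the other gene-free stretches, 59.7% of the 1607 members were between genes, 39.0% inside and 1.24% at gene ends. The median distance to a protein-coding gene was 48259 bp over all members and 14621 bp over the 1607. Any RefSeq gene, including noncoding ones, was touched by 882 members (44.3%), and such genes cover 58.0% of the span.

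**Figure D4:**
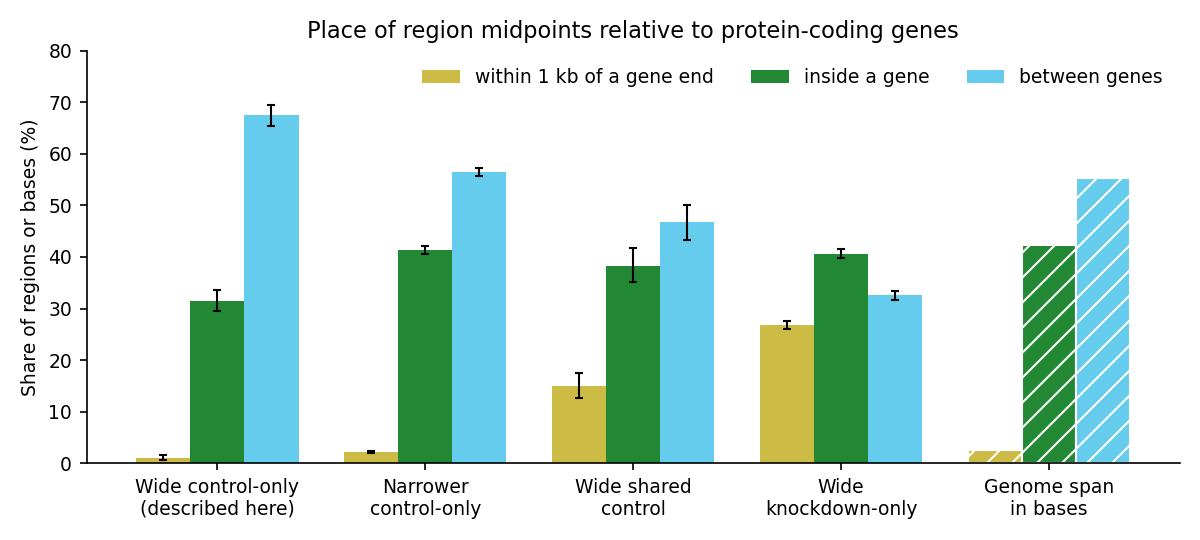
Share of each kind of region with its midpoint at a gene end, inside a protein-coding gene or between genes, with the share of bases of the span (hatched); error bars are exact 95% intervals. Members were at gene ends in 1.00% and between genes in 67.5%, and wide regions found only in the shNIT2 list in 26.8% and 32.5%.

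Other kinds of region had more of their number at genes, as the plot of place shows. At gene ends were 1.00% of members, 2.11% of narrower unshared regions, 15.0% of wide shared regions and 26.8% of wide regions found only in the shNIT2 list. No member held an end of a protein-coding gene, against 0.0872% of the narrower, 1.96% of the shared and 5.74% of the shNIT2-only regions. The count of 0 allows a share of up to 0.185% by the exact interval, or 0.151% if taken as 3 counts of the total. For promoter windows the shares were 0 of the members, 0.137% of the narrower, 5.29% of the shared and 14.7% of the shNIT2-only regions. Each of the 46 wide shNT regions that reached a promoter window was shared with the shNIT2 list, so the condition on overlap took all of them out of the members. The low share at promoters is therefore in part set by how members were chosen.

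The 20 members at gene ends were of ordinary height. The strongest lay 365 bp from FBXL4, a mitochondrial F-box protein, with 9 fragments and 7.83-fold enrichment. It was followed by members at the olfactory receptor OR9A4 (6.49-fold), KGD4, a subunit of the oxoglutarate dehydrogenase complex (5.997-fold), and INSM2, a zinc finger factor (5.61-fold). ZNF510 (5.48-fold), LEPROTL1 (5.26-fold), TESMIN (5.24-fold), LOC124900996 (5.14-fold), ATP5MJ and SPPL2A, an intramembrane protease (both 5.05-fold), made up the 10. These 10 had 6 to 9 fragments.

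An end of any RefSeq gene was held by 7 members, and the 9 genes concerned included no protein-coding one. They were RNA5S1, RNA45SN2, RNA45SN3, MIR6724-1, MIR6724-3, the pseudogene ZNF887P and the long noncoding RNAs UGDH-AS1, LOC124904029 and LOC105373416. The member at ZNF887P had 7 fragments and 6.04-fold, that at UGDH-AS1 6 fragments and 5.40-fold, that at LOC124904029 8 fragments and 5.42-fold and that at LOC105373416 3 fragments and 3.13-fold. Long noncoding RNA genes were touched by 254 members (12.8%) and pseudogenes by 38 (1.91%).

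Genes that held members were long ones. Of 20037 protein-coding genes, 580 held the midpoint of a member, with a median length of 161.4 kb, against 24.1 kb over all. A longer gene has more room to hold a region, and the counts were not adjusted for length. There were 62 genes with 2 or more members and 8 with 3 or more. CNTNAP2, a neurexin-family adhesion protein, held 5 over 2304 kb. IMMP2L, RABGAP1L, C8orf34, COL24A1, TMEM135, ME1 and ANTXR2 held 3 each, and ANTXR2, an anthrax toxin receptor, had the highest density of the 8, 1.74 per 100 kb. ME1, the cytosolic malic enzyme, had 1.36 per 100 kb.

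The respiratory chain list, taken up with earlier results of these data known, had 88 genes, and 4 of them (4.55%) had a member in their span or at an end, against 598 of all 20037 protein-coding genes (2.98%). A pair of the 4 shared a single member, so the count rests on 3 regions. UQCRH, a subunit of complex III, held a member of 5 fragments and 4.37-fold. ATP5MJ had its member of 6 fragments and 5.05-fold at an end. ATP5MF, a subunit of ATP synthase, and its readthrough ATP5MF-PTCD1 shared a member of 8 fragments and 6.04-fold. The nearest shNIT2 region was 1001 bp from the UQCRH member, 143 bp from the ATP5MJ member and 219 bp from the shared one, so all 3 members had an shNIT2 region close by.

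Closeness to centromeres was read from the edge of the longest gene-free stretch, since no centromere positions were at hand. Within 2 Mb of that edge were 190 members (9.54%, 8.29 to 10.9), and 3.05% of the span lies there. The share was 4.93% of narrower unshared regions, 1.27% of wide shared regions and 1.47% of wide regions found only in the shNIT2 list. Many of the 190 were in the other gene-free stretches of 1 Mb or more, and without those stretches 78 remained, 4.85% of the 1607. The 4.93% of narrower unshared regions and the 3.05% of the span keep those stretches in, so they are not on the same footing as 4.85%. The densities by distance below leave those stretches out for each kind shown. With the longest stretch without a protein-coding gene left out in its place, 1959 regions met the rule and the share was 2.60% (1.94 to 3.41). Both the set of members and the edge change with this setting, so the high share depended on how the stretch was defined. On chromosomes 14, 21 and 22 the longest stretch lies at lower coordinates than the stretch that held most of their members, so its edge is not a direct measure of distance to the centromere there. On chromosome 14 it ends at 16024657, and the other stretch starts at 16057623. On Y the longest stretch is chrY:26634656-56855242, and its place relative to the centromere was not checked.

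**Figure D5:**
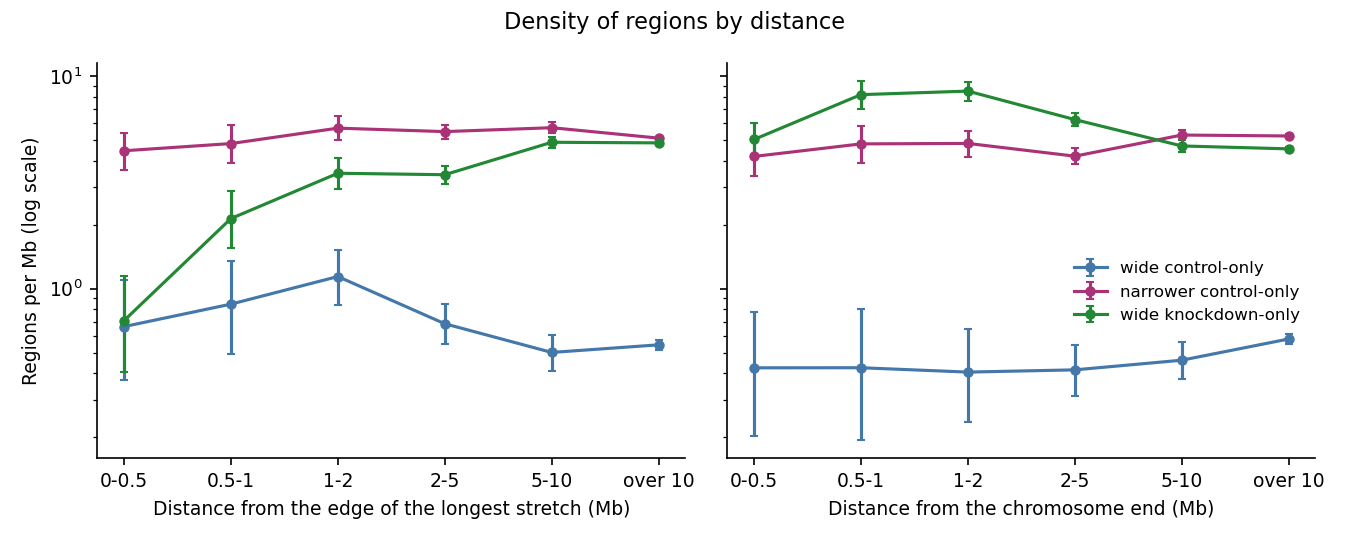
Regions per Mb by distance from the edge of the longest gene-free stretch and from a chromosome end, with the other gene-free stretches of 1 Mb or more left out and Poisson 95% intervals. The highest member density was 1.14 per Mb, 1 to 2 Mb from the stretch (0.868 without the chromosome 16 group), and were between 0.405 and 0.460 per Mb within 10 Mb of a chromosome end.

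The plot of densities by distance shows the members on both scales. Members numbered 0.663 per Mb (0.371 to 1.09) within 0.5 Mb of the longest stretch, 0.846 from 0.5 to 1 Mb, 1.14 (0.835 to 1.52) from 1 to 2 Mb, 0.684 from 2 to 5 Mb, 0.501 from 5 to 10 Mb and 0.544 (0.515 to 0.574) beyond. The intervals of these first 3 bins overlapped. The bin of 1 to 2 Mb had 46 members, of which 11 were the chromosome 16 group, and without that group, a choice made after seeing the data, it had 35, or 0.868 per Mb. Wide regions found only in the shNIT2 list were sparse at the stretch, with 0.707 per Mb within 0.5 Mb, 2.14 from 0.5 to 1 Mb and 4.86 beyond 10 Mb. Narrower unshared regions numbered 4.46 per Mb (3.64 to 5.42) within 0.5 Mb, 4.83 from 0.5 to 1 Mb, 5.70 from 1 to 2 Mb and 5.12 beyond 10 Mb. The interval of their first bin included the value beyond 10 Mb. The intervals assume independent regions, and grouped members make them too narrow.

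The members nearest to the longest stretch were not uniform in strength. On chromosome 20, chr20:28643736-28644724 lay 63103 bp from the edge with 52 fragments and 7.81-fold, and its neighbour chr20:28645008-28646115 had 43 fragments and 11.7-fold. The members near ALG10B, a glucosyltransferase (93381 bp from the edge, 4.51-fold), ZNF33B (106606 bp, 4.70-fold) and WSB1 (179113 bp, 3.91-fold) had 4 or 5 fragments. A member on chromosome 3, chr3:91283917-91284986, lay 228789 bp from the edge with 15 fragments and 8.76-fold; its nearest protein-coding gene, the ephrin receptor gene EPHA3, was 1801782 bp away. The 4 remaining ones of the 10 nearest were on chromosome 7, with 5 to 9 fragments and 4.16-fold to 7.46-fold. Over the 78 members within 2 Mb of the stretch and outside the others, the median enrichment was 4.89-fold.

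Chromosome ends held few members. Within 2 Mb of an end were 36 (1.81%, 1.27 to 2.49), and 3.05% of the span lies there. Without the other gene-free stretches the share was 2.24% (1.57 to 3.09) of the 1607, an interval that includes 3.05%. The share was 2.52% of narrower unshared regions, 3.34% of wide shared regions and 4.78% of wide regions found only in the shNIT2 list. Member density was 0.424 per Mb within 0.5 Mb of an end, 0.405 from 1 to 2 Mb, 0.460 from 5 to 10 Mb and 0.580 (0.550 to 0.611) beyond, and wide shNIT2-only regions had 5.04, 8.52, 4.70 and 4.56 per Mb over the same bins. An end was taken as coordinate 1 or the last coordinate of any gene or region in the files, and no chromosome lengths were used. Those 36 were of moderate height, with a median of 4.96-fold and none above 7.45-fold.

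The members nearest to an end were a mix of regions inside genes and regions between them. Closest were a pair on chromosome 7, chr7:47425-48226 and chr7:48820-49537, with 9 fragments each and 6.54-fold and 7.45-fold. POLR3K, a subunit of RNA polymerase III, held a member of 4 fragments and 3.91-fold, and TUBB8B, a beta-tubulin, held one of 6 fragments and 5.05-fold. DEFB126, a beta-defensin, had a pair 8040 and 7128 bp away, with 5 and 6 fragments and 4.45-fold and 4.68-fold. CYP2E1, an ethanol-oxidising cytochrome P450, had a 7.35-fold member 22094 bp away. IFITM3, an interferon-induced antiviral protein, had one of 4.68-fold 1047 bp away. SPRY3 held one of 6.11-fold, and FBXO25 had one of 6.01-fold 37726 bp away.

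The widest members outside gene-free stretches were not the tallest. TMEM178B had a member of 2057 bp at 9727 bp from the gene, with 8 fragments and 6.25-fold. TMEFF2 had one of 1916 bp at 73949 bp, with 9 fragments and 7.22-fold. DAB1, an adaptor of the reelin pathway, held one of 1851 bp with 5 fragments at the floor background, 4.70-fold. FOXQ1, a forkhead transcription factor, had one of 1820 bp at 4521 bp, with 9 fragments and 6.81-fold. NAALADL2 held one of 1703 bp (10 fragments, 8.60-fold), BTG1, an antiproliferative factor, had one of 1658 bp at 172210 bp (11 fragments, 9.39-fold), and CCBE1 had one of 1580 bp at 25170 bp (8 fragments, 6.74-fold). The 10 widest also took in the 45S members at RNA45SN3 (1766 bp) and RNA45SN2 (1758 bp) and the region of 2877 bp on chromosome 14. The 7 others carried 5 to 11 fragments.

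Some members lay in groups. Within 100 kb of another member were 741 (37.2%, 35.1 to 39.4), and 361 of the 1607 outside the other gene-free stretches (22.5%). The same measure within each kind was 72.1% of narrower unshared, 50.1% of wide shared and 86.5% of wide shNIT2-only regions; the kinds differ in number, which moves this share. There were 29 groups of 3 or more, which held 465 members, and the largest had 130. Outside the other gene-free stretches there were 24 groups with 87 members. The densest groups of at least 3 lay in C8orf34 (3 members in chr8:68363630-68367603, 4.70-fold to 6.68-fold) and 81339 bp from AQP7B (3 members in chr2:94501852-94505971, 4.72-fold to 37.5-fold). Next were those 12280 bp from MIB1, a ubiquitin ligase of Notch signalling (chr18:21883234-21890467, 4.08-fold to 5.35-fold), 62625 bp from CCNYL1B (chr16:34278557-34288878, 6.41-fold to 10.6-fold) and 43422 bp from RTP4 (chr3:187415499-187428293, 4.86-fold to 6.26-fold), each of 3 members.

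Regions of the shNIT2 list were seldom close to a member, and by the rule none could overlap one. The median distance to the nearest was 187349 bp over all members and 108817 bp over the 1607 outside the other gene-free stretches. Within 1 kb were 60 members (3.01%), within 10 kb 244 (12.3%) and within 100 kb 775 (38.9%). The same shares for narrower unshared regions were 4.51%, 17.7% and 54.8%. The other gene-free stretches, without any shNIT2 region, held 19.3% of members but 7.17% of narrower unshared regions. The shares of these 2 kinds are therefore not on the same footing. The distances of members reached from 2 bp to 4815573 bp, and the 384 members in other gene-free stretches were all at least 1950601 bp from an shNIT2 region.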

How the data were processed

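Per the labels' protocols, formaldehyde-fixed MKN45 chromatin was sonicated, immunoprecipitated for H3K14ac and sequenced as single-end reads. Per the submitters' processing notes, the tools included MACS2 2.1.1 as peak caller and Bowtie2 2.2.6 as aligner, on hg38, beside Trimmomatic 0.35 and cutadapt 1.9.1; the parameters, and how reads with several addresses were handled, are not given in the sources used here. The authors deposited 1 narrowPeak list per H3K14ac library, with an integer score, a fold enrichment (a ratio, which the values fit as summit pileup plus 1 over local background plus 1), and a p-value and a q-value as −log10.

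Genes came from RefSeq (GRCh38.p14), the same primary coordinates as hg38, and ends of genes were windows of 1 kb on both sides. A whole pileup and a background were solved from the deposited fold and −log10 p (tolerance 0.1%), after a check on simulated data. Overlap meant 1 shared base. Python 3.11.15, numpy 2.4.6, pandas 2.3.3, scipy 1.17.1 and matplotlib 3.10.9 were used. Named genes were those nearest to the 10 strongest, widest, most stretch-near and most end-near members, the 5 densest groups, the 10 strongest at gene ends and inside genes, and the respiratory chain list; other names were chosen after their values were seen. The members, lists, zones and windows were chosen with earlier results of these data known. Alternatives varied the width, the thresholds on fold and q, the overlap, the gene set and the distance limits.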

Additional observations from a re-analysis of the deposited data

How the results depend on the processing

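Of 84 alternative values over 10 results, 40 stayed within the main interval or within 1.5 times the main count and 44 moved; the cause was not tested for those that moved, beyond what each setting leaves out. With a −log10 q of at least 5 there were 681 members, with 0.441% at gene ends, 20.7% inside genes, 78.9% between genes, 14.1% within 2 Mb of the longest stretch, 40.4% within 100 kb of another, a median of 9 fragments and a background of 0.386. With a fold of at least 5 there were 1011 members, with 25.7% inside genes, 73.3% between genes, 11.2% near the stretch, a median of 8 fragments and a background of 0.348. With a width of 750 bp or more there were 527 members, with 27.7% inside genes, 71.5% between genes, 11.8% near the stretch, 28.3% within 100 kb of another and a median of 7 fragments. With every gene-free stretch of 1 Mb or more left out, 39.0% were inside genes, 59.7% between genes, 4.85% near the stretch, 22.5% within 100 kb of another and 7.28% near a listed family, with a background of 0.325. Counting only a 50% reciprocal overlap as shared gave 4.31% at gene ends, 62.6% between genes, 7.73% near the stretch, 43.6% within 100 kb of another and a background of 0.361. With the longest stretch without a protein-coding gene left out, 2.60% were near it. With all RefSeq genes, 2.51% were at gene ends, 42.8% inside genes and 54.7% between genes, and gene ends of 3 kb took in 3.87%. Limits of 1 Mb and 5 Mb gave 3.82% and 21.2% near the stretch, and 0.954% and 4.47% near a chromosome end. Limits of 10 kb and 1000 kb gave 24.1% and 76.8% within reach of another member. Families counted inside the gene only gave 2.16%, and within 50 kb 15.8%. Members stayed mostly between genes under each of these settings that gave that share.

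No paired analysis was possible because each condition had 1 H3K14ac library. Most members rest on fewer than 10 fragments, and the library depths are unknown.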
